A study of Mus musculus with 8 samples.

Results

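Collagen genes encode the chains of the most abundant protein family of the extracellular matrix. They were taken as every protein-coding gene of the deposited table whose symbol is Col, a number, the letter a and a number, which gave 44 of 33971 genes (18030 of them protein coding). They fell into 11 fibrillar collagen genes, 8 basement membrane collagen genes and 25 other collagen genes. The other class held 9 fibril-associated, 6 beaded filament (collagen VI), 4 membrane-spanning and 3 short-chain network genes, 1 anchoring fibril gene, and 2 genes in no such class.

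Each collagen molecule is a helix of intertwined chains, which are hydroxylated, glycosylated and folded in the endoplasmic reticulum before secretion. Fibrillar collagens, such as collagens I, II and III, then assemble into ropes, whereas collagen IV forms the sheet-like network of basement membranes and collagen VI forms beaded filaments next to them. In the embryonic brain, collagens are known mainly from the meninges, the vessel wall and the basement membrane under the pia, and collagens II, IX and XI are best known from cartilage.

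Whole brains of E14.5 WT mouse embryos were compared, to ask how a maternal lack of choline bears on gene expression there, between dams on a choline-deficient diet (CDD, 4 brains) and dams on a normal chow diet (ND, 4 brains). The dams were WT as well, the study's methods start the CDD on the day of mating, and no group carried a transgene or a deletion. RNA was sequenced in bulk after poly-A selection, so that fewer cells of a type and less RNA per cell cannot be told apart. The sources do not say how many dams or litters the brains came from, so p-values measure the spread between these 8 brains.

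The libraries held 31770217 to 43121170 counts. Samples of the same diet differed by more than counting noise, and no library was a duplicate of another. The brain genes *Sox2*, *Nes*, *Dcx*, *Tubb3* and 6 more on a list of 10 passed the filter, with a summed level of 4343 to 4866 CPM (counts scaled to the same library size by edgeR) in CDD and 4348 to 4395 CPM in ND. Of these, the neural progenitor genes *Nes* (log2 fold change 0.47, adjusted p = 0.0034, edgeR) and *Pax6* (0.25, adjusted p = 0.0064) were higher in CDD, also without each brain. They were 20% of the list, and 8.83% of all tested genes passed an adjusted p of 0.05 (edgeR). CDD 2 stood apart with 101 CPM summed over 7 genes of caudal hindbrain and spinal cord, against 3.74 to 7.73 CPM in the other brains. CDD 4 and CDD 1 held the lowest and the highest sum of 6 choroid plexus genes, 189 and 507 CPM, with 288 to 330 CPM in ND. Most of this sum was *Ttr*, at 149 CPM in CDD 4 and 439 CPM in CDD 1. Of the 6 genes, 5 had a log2 fold change (CDD over ND) above 0 and 1 below, and none passed an adjusted p of 0.05 (edgeR). *Clic6* and *Kcne2* were higher in every CDD brain, CDD 4 included, than in any ND brain, as were 7.65% of all tested genes. The part of these differences in the collagen results was not tested, and each brain was left out in turn.

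The level per length of the 44 genes, as the authors' FPKM, spanned from *Col4a1* at a mean of 41.2 over all 8 brains to *Col10a1* at 0.0241. *Col4a1* and *Col4a2* (30.8), which together form the common collagen IV trimer, came first. The fibrillar genes *Col3a1* (20.4), *Col1a1* (16.6), *Col2a1* (11.6) and *Col1a2* (11.2) followed, and then the endostatin precursor *Col18a1* (10.2). *Col4a1* was above *Col4a2*, *Col4a2* above *Col3a1*, *Col3a1* above *Col1a1* and *Col1a1* above *Col2a1* in 8 of 8 brains. *Col2a1* was above *Col1a2* in only 5 of 8 brains and *Col1a2* above *Col18a1* in 5 of 8, so these neighbours could not be put in an order. The genes *Col9a3* (7.77) and *Col9a2* (6.74) had the highest level of the other class.

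**Figure D1:**
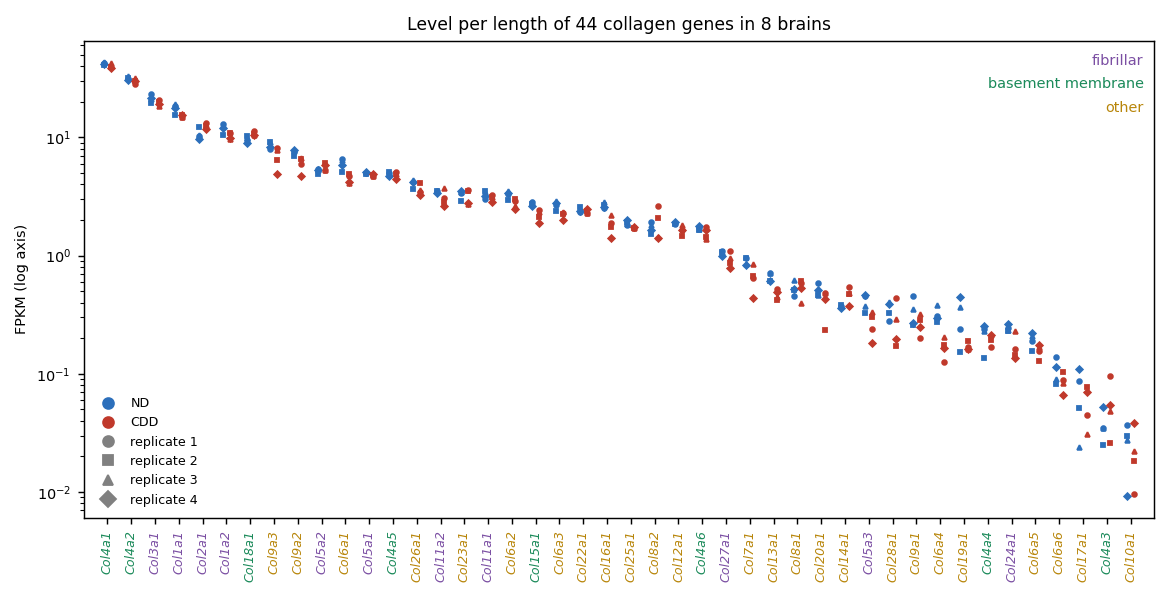
FPKM (log axis) of each of the 44 collagen genes in the 4 ND (blue) and 4 CDD (red) brains, ordered by the mean over all brains, with gene names coloured by class and marker shapes for the replicate. *Col4a1* (39.1 to 43.1) and *Col4a2* (28.5 to 33.1) lie above every other gene in all brains.

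The called collagen genes were nearly all lower in CDD brains: 4 collagen VI genes, 2 fibril-associated genes, 1 membrane-spanning gene, 3 fibrillar genes and 1 basement membrane gene. Of the 43 genes that passed the filter on low counts, 11 were lower in CDD and 1, *Col2a1*, was higher at an adjusted p under 0.05 (edgeR's quasi-likelihood test, Benjamini-Hochberg over 19367 genes). This was 27.9% of the tested collagen genes, and 8.83% of all tested genes passed. The genes lower in CDD made up 25.6% of the collagen genes and 4.59% of all genes, and 4.24% of all genes were higher. In all, 37 of 43 collagen genes had a log2 fold change (CDD over ND) below 0, and their median was -0.21, against 50.9% below 0 and a median of -0.0038 for all genes. The gene that was not tested, *Col10a1* of hypertrophic cartilage, had 1 to 4 counts in each brain.

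By the raw spread, the 4 CDD brains were all below the 4 ND brains for 11 collagen genes and all above them for 1. All tested genes behaved so in 7.39% of cases for lower and in 7.65% for higher. The 11 genes comprised 8 of the 11 genes called lower together with *Col5a1*, *Col12a1* and *Col25a1*, and the 1 gene that was higher without overlap was *Col18a1*, which was not called (log2 fold change 0.14, adjusted p = 0.0775, edgeR).

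The number of calls depended on the ND brains. Without ND 1, 3 of 43 collagen genes passed, against 3.5% of all genes. Without ND 3 there were also 3, against 2.4%, and without ND 4 there were 5, against 3.13%. Leaving out ND 2 gave 13, against 7.38%. Without CDD 1, CDD 2 or CDD 4, the brains that stood apart, 9, 10 and 10 passed, against 6.14%, 7.14% and 7.7% of all genes, and without CDD 3 there were 15, against 12.7%. With limma on log2(FPKM + 1) of the authors' values, none of the collagen genes and 2.01% of all genes passed. In that fit 19 collagen genes had an unadjusted p under 0.05, whereas in the edgeR fit 23 did. The added 1 shrinks the log2 fold change of genes with a low FPKM. *Col6a4* (mean FPKM 0.242) had -0.17 there and -0.89 in edgeR, and *Col1a1* (16.6) had -0.21 and -0.23. The call of *Col1a1* was lost as well (adjusted p = 0.0786, limma), and the cause of the lost calls was not tested.

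**Figure D2:**
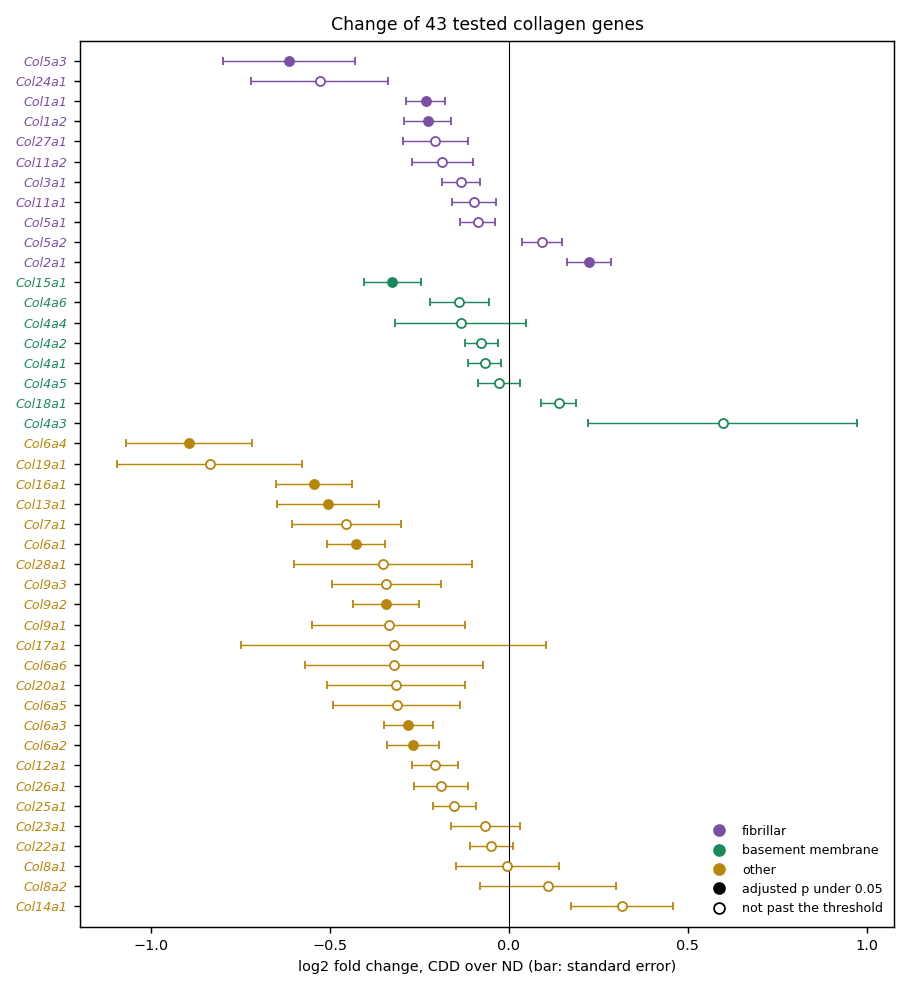
Log2 fold change of CDD over ND (x axis) with its standard error for the 43 tested collagen genes, grouped by class (colour); filled points passed an adjusted p of 0.05 (edgeR). Of the 24 tested genes of the other class, 22 lie left of 0, and *Col2a1* is the single filled point to the right.

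Collagen VI held 4 of the 12 calls, which was 66.7% of its 6 genes beside 8.83% of all tested genes. Its chains form beaded filaments that connect basement membranes with the surrounding matrix, and *Col6a1* and *Col6a2* each give 1 chain of the classical trimer, with *Col6a3* or a product of *Col6a4*, *Col6a5* or *Col6a6* as the remaining chain. All 6 genes had a log2 fold change below 0, and the median log2 fold change was -0.32. Their summed FPKM was 9.85 ± 0.687 in CDD and 12.6 ± 1.14 in ND (SD, n = 4), which was 4.74% and 5.60% of the FPKM of all collagen genes.

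*Col6a1* (10:76544626-76562002 in the authors' coordinates, whose build is not given in the sources used here) stood at 20.7, 21.6, 18.2 and 18.3 CPM in CDD brains 1 to 4 and at 28.7, 22.4, 28.7 and 26.0 CPM in ND brains 1 to 4. Every CDD brain was below every ND brain, with ND 2 nearest to CDD. The log2 fold change was -0.43 ± 0.082 (SE, adjusted p = 0.0044, edgeR), and it passed in all 8 fits that left out a brain.

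*Col6a4* (9:105866653-105973982) was expressed at a low level, with 1.09, 1.51, 1.77 and 1.42 CPM in CDD and 2.66, 2.35, 3.27 and 2.52 CPM in ND. The diets did not overlap, and its log2 fold change of -0.89 ± 0.18 (SE, adjusted p = 0.0048, edgeR) was the lowest of all collagen genes. Only 36 to 113 counts per brain lay behind these values.

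For *Col6a3* (1:90693645-90771693) the CDD brains had 27.9, 27.2, 27.8 and 23.9 CPM and the ND brains 32.4, 28.9, 34.7 and 33.7 CPM. Again no CDD brain reached the lowest ND brain, ND 2. The log2 fold change was -0.28 ± 0.068 (SE, adjusted p = 0.0165, edgeR), and without ND 1, ND 3 or ND 4 the adjusted p was 0.0537, 0.0872 and 0.067.

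*Col6a2* (10:76431596-76459464) had 24.2, 25, 21.8 and 20.4 CPM in CDD and 27.6, 24.8, 29.4 and 28.3 CPM in ND. CDD 2 lay above ND 2, so the diets overlapped. Its log2 fold change was -0.27 ± 0.072 (SE, adjusted p = 0.027, edgeR), with an adjusted p of 0.0806, 0.124 and 0.0915 without ND 1, ND 3 or ND 4. *Col6a5* and *Col6a6*, at a mean FPKM of 0.175 and 0.0958, had log2 fold changes of -0.31 (adjusted p = 0.302, edgeR) and -0.32 (adjusted p = 0.469) and were not called.

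The genes *Col6a2* and *Col6a1* lie one after the other on the same strand, 85162 bases apart, and *Col6a6*, *Col6a5* and *Col6a4* do so on chromosome 9 with gaps of 27918 and 28811 bases. The 250 bases before the RefSeq start of *Col6a1* (chr10:76726045-76726294, minus strand) and of *Col6a2* (chr10:76623631-76623880, minus strand) are shown because both chains of 1 trimer were called lower. Both are from GRCm38.p6. RefSeq lists a second start of *Col6a2*, whose window (chr10:76623405-76623654) overlaps the shown one and also the gene itself, and the window further upstream is shown. Capitals mark matches on either strand to the CCAAT box (CCAAT or ATTGG), the GC box (GGGCGG or CCGCCC) and the TATA box (TATAAA or TTTATA).
Col6a1: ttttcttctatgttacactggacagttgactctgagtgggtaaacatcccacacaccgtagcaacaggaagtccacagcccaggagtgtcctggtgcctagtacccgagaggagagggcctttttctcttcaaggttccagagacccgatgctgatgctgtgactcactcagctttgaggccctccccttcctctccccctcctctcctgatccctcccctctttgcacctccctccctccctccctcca
Col6a2: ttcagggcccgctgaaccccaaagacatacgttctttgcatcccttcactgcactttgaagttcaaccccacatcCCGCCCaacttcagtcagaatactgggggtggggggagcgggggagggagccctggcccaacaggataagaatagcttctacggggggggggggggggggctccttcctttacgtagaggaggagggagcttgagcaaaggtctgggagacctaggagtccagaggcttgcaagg
The *Col6a1* window held none of the 3 motifs, the shown *Col6a2* window held 1 GC box, and the other *Col6a2* window held 3.

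Among fibril-associated collagens, which sit on the surface of fibrils, 8 of 9 genes had a log2 fold change below 0, with a median of -0.33. *Col16a1* and *Col9a2* were called (22.2%, beside 8.83% of all tested genes). *Col16a1* (4:129941633-129993076) had 12.7, 11.9, 15 and 9.41 CPM in CDD and 17.0, 18.1, 19.2 and 17.4 CPM in ND. No CDD brain reached the ND range, and CDD 4 was the lowest. Its log2 fold change was -0.54 ± 0.11 (SE, adjusted p = 0.0057, edgeR), and the call held without each of the 8 brains.

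*Col9a2* (4:120896582-120912519), a chain of the collagen that coats collagen II fibrils, had 18.5, 20.2, 20.7 and 14.4 CPM in CDD and 23.2, 21.6, 24.5 and 24.4 CPM in ND. The diets did not overlap, and CDD 4 lay well below the other CDD brains. Its log2 fold change was -0.34 ± 0.092 (SE, adjusted p = 0.03, edgeR), with an adjusted p of 0.065 without CDD 1 and of 0.0749, 0.104 and 0.0971 without ND 1, ND 3 or ND 4. *Col9a3*, which had the highest FPKM of the other class, had 31.8, 25, 30.2 and 18.9 CPM in CDD and 31.2, 35.7, 35.6 and 32.1 CPM in ND. CDD 1 lay above ND 1, and the log2 fold change of -0.34 ± 0.15 was not called (SE, adjusted p = 0.22, edgeR).

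Of the remaining fibril-associated genes, *Col12a1* (-0.21, adjusted p = 0.0528, edgeR) and *Col19a1* (-0.83, adjusted p = 0.0545) came nearest to the threshold. *Col12a1* had 22.4 to 27.6 CPM in CDD and 28.2 to 29.6 CPM in ND without overlap, and *Col19a1* had 1.12 to 1.30 CPM in CDD and 1.06 to 3.07 CPM in ND. *Col12a1* was called in 6 of 10 fits with another test, scaling, filter or covariate, with an adjusted p of 0.0333 in DESeq2 and 0.0461 with the replicate block, and *Col19a1* in 4 of 10 (0.0256 in DESeq2). *Col14a1* was the 1 gene of this group with a log2 fold change above 0 (0.32, adjusted p = 0.182, edgeR), and *Col9a1*, *Col20a1* and *Col22a1* had values of -0.33, -0.31 and -0.048 (adjusted p = 0.365, 0.342 and 0.69).

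The membrane-spanning collagens, which are anchored in the plasma membrane with the collagen helix outside, had 4 of 4 log2 fold changes below 0. They held 1 call (25%, beside 8.83% of all tested genes). *Col13a1* (10:61674015-61814887) had 2.44, 1.97, 2.11 and 2.29 CPM in CDD and 3.36, 2.88, 3.35 and 2.90 CPM in ND, with no overlap. Its log2 fold change was -0.50 ± 0.14 (SE, adjusted p = 0.0335, edgeR), and the adjusted p was 0.078, 0.106, 0.127 and 0.0669 without CDD 2, ND 1, ND 3 or ND 4. *Col25a1*, known from motor innervation and amyloid plaques, had 22.2 to 22.6 CPM in CDD and 23.6 to 26.5 CPM in ND and was not called (-0.15, adjusted p = 0.121, edgeR). *Col23a1* and *Col17a1* were not called either (-0.065, adjusted p = 0.743, edgeR, and -0.32, adjusted p = 0.71).

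No other gene outside the fibrillar and basement membrane classes passed. *Col7a1*, which forms the anchoring fibrils of skin, had 4.49 to 8.83 CPM in CDD and 8.61 to 9.89 CPM in ND (log2 fold change -0.45, adjusted p = 0.0795, edgeR). It was called in 3 of those 10 fits, with an adjusted p of 0.0221 in DESeq2 and 0.0211 with the replicate block. The short-chain genes *Col8a1* and *Col8a2* had log2 fold changes of -0.0032 and 0.11 (adjusted p = 0.993 and 0.788, edgeR). *Col26a1* and *Col28a1* had -0.19 and -0.35 (adjusted p = 0.122 and 0.425, edgeR).

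**Figure D3:**
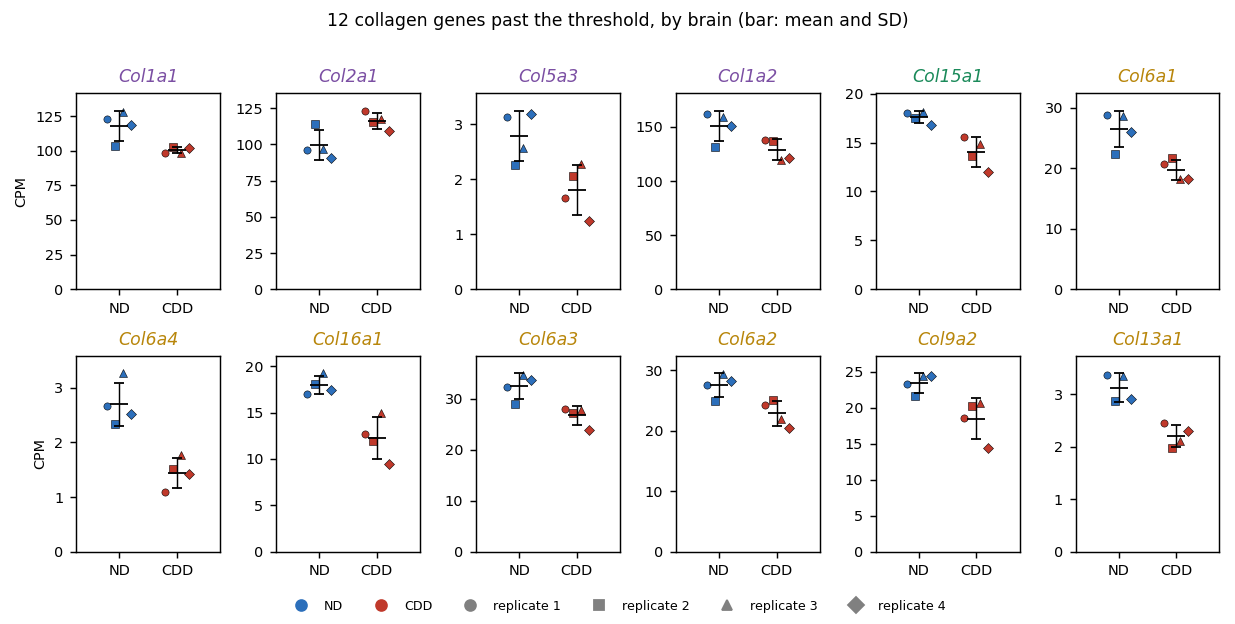
CPM of the 12 called collagen genes in each ND (blue) and CDD (red) brain, with marker shapes for the replicate and bars for mean and SD (n = 4); all axes start at 0. The diets overlap for *Col2a1*, *Col5a3*, *Col1a2* and *Col6a2* and do not overlap for the other 8 genes.

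Of the 11 fibrillar genes, *Col1a1*, *Col1a2* and *Col5a3* were lower in CDD and *Col2a1* was higher (36.4%, beside 8.83% of all tested genes). The median log2 fold change over the class was -0.18. The chains of collagen I, the main fibril collagen of bone, skin and meninges, are encoded by *Col1a1* and *Col1a2*. *Col1a1* (11:94827050-94843868) had 98.6, 103, 98.5 and 102 CPM in CDD and 123, 103, 128 and 118 CPM in ND. The highest CDD brain (102.9) was just below the lowest ND brain, ND 2 (103.1), so the absence of overlap was narrow. Its log2 fold change was -0.23 ± 0.053 (SE, adjusted p = 0.0126, edgeR), and the adjusted p was 0.0652 without ND 1 and 0.0823 without ND 3.

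*Col1a2* (6:4504814-4541544) had 138, 137, 120 and 122 CPM in CDD and 162, 132, 159 and 151 CPM in ND. CDD 1 and CDD 2 lay above ND 2. The log2 fold change was -0.23 ± 0.065 (SE, adjusted p = 0.0453, edgeR), almost that of *Col1a1*, but the adjusted p was 0.0679 without CDD 3, 0.222 without CDD 4 and 0.104 to 0.137 without ND 1, ND 3 or ND 4. It was also 0.0507 in limma-voom, 0.0654 with *Xist* as a covariate and 0.058 with the gene length offset. The ratio of *Col1a1* to *Col1a2* FPKM was 1.48 ± 0.11 in CDD and 1.48 ± 0.0364 in ND (SD, n = 4, exact two-sided permutation p = 0.943).

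*Col3a1*, the collagen of reticular fibres and the ligand of the receptor encoded by *Adgrg1* at the pial surface, had 205, 195, 181 and 186 CPM in CDD and 228, 192, 210 and 211 CPM in ND. ND 2 lay below CDD 1 and CDD 2, and the log2 fold change of -0.13 ± 0.053 was not called (SE, adjusted p = 0.123, edgeR). *Col3a1* and *Col5a2* lie tail to tail on chromosome 1, 24615 bases apart, and the value for *Col5a2* was 0.093 (adjusted p = 0.339, edgeR).

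RefSeq windows of GRCm38.p6 were matched by symbol for 35 of the 44 genes and not for *Col12a1*, *Col14a1*, *Col1a1*, *Col22a1*, *Col26a1*, *Col2a1*, *Col4a3*, *Col5a2* and *Col9a3*. Those of *Col1a2* (chr6:4505368-4505617, plus strand), *Col3a1* (chr1:45311288-45311537, plus strand) and *Col9a2* (chr4:121039316-121039565, plus strand) are shown as the 250 bases before the start of a called fibrillar gene, an abundant fibrillar gene that was not called and a called fibril-associated gene. Capitals mark the same 3 motifs as for collagen VI.
Col1a2: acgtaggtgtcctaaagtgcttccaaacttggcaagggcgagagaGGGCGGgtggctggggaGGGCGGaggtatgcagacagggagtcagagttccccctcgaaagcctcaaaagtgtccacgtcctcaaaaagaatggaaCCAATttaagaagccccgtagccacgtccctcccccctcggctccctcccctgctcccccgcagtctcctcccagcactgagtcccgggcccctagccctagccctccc
Col3a1: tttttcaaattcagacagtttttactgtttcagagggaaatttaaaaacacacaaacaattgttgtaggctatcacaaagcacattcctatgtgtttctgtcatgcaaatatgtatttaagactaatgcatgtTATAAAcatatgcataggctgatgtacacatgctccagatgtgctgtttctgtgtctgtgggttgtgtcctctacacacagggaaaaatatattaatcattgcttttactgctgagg
Col9a2: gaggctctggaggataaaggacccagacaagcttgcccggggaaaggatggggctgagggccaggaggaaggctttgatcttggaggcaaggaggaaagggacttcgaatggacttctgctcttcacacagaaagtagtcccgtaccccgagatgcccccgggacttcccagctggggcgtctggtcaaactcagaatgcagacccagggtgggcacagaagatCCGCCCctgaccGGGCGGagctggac
*Col1a2* held 2 GC boxes and 1 CCAAT box, *Col3a1* held 1 TATA box and *Col9a2* held 2 GC boxes. A GC box was found in 57.9% of the 38 collagen windows and in 32.7% of all 32851 windows, a CCAAT box in 34.2% and 33.8%, and a TATA box in 13.2% and 12.4%. The median GC content was 59% in the collagen windows and 52.4% in all windows.

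*Col2a1* (15:97873483-97902576), the collagen of cartilage fibrils that is also transcribed in the early neuroepithelium, was the called gene with the opposite direction. It had 123, 115, 117 and 109 CPM in CDD and 96.4, 114, 96.9 and 90.5 CPM in ND. ND 2 lay above CDD 4, and the other ND brains lay below every CDD brain. On the log2 scale the fold change was 0.22 ± 0.061 (SE, adjusted p = 0.0313, edgeR). The call held in 2 of 8 fits that left out a brain, and the adjusted p was 0.053 to 0.109 without CDD 1, CDD 2, CDD 4, ND 1, ND 3 or ND 4. Of 9 cartilage genes, only 2 passed the filter, none was called, *Acan* and *Matn1* were among those that did not pass, and their summed level was 1.99 to 2.72 CPM in CDD and 2.63 to 3.76 CPM in ND.

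*Col5a3* (9:20681346-20726363), a minor chain of collagen V, had 1.66, 2.06, 2.28 and 1.24 CPM in CDD and 3.13, 2.25, 2.57 and 3.19 CPM in ND. CDD 3 lay just above ND 2. The log2 fold change was -0.61 ± 0.19 (SE, adjusted p = 0.0449, edgeR), with an adjusted p of 0.0526 to 0.146 without CDD 1, CDD 2, CDD 4, ND 1, ND 3 or ND 4 and of 0.0525 with the replicate number as a block. The collagen V and XI genes *Col5a1*, *Col11a1* and *Col11a2* had log2 fold changes of -0.086, -0.097 and -0.18 (adjusted p = 0.307, 0.356 and 0.196, edgeR). For *Col24a1* and *Col27a1* the values were -0.53 and -0.20 (adjusted p = 0.0926 and 0.175, edgeR).

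Of the 8 basement membrane genes, 1, *Col15a1*, was called, which was 12.5% beside 8.83% of all tested genes. The median log2 fold change of the class was -0.071. *Col15a1* (4:47208161-47313167), whose product lies at the outer face of basement membranes, had 15.6, 13.6, 14.9 and 12 CPM in CDD and 18, 17.5, 18.1 and 16.8 CPM in ND. The diets did not overlap. This gave a log2 fold change of -0.33 ± 0.079 (SE, adjusted p = 0.0165, edgeR), and the adjusted p was 0.0589 without ND 1 and 0.0689 without ND 3.

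*Col18a1*, which is closely related to *Col15a1*, had 80.2, 75.1, 73.9 and 73.5 CPM in CDD and 67.6, 72.5, 70.8 and 63.8 CPM in ND. All CDD brains were above all ND brains. The adjusted p of 0.0775 given above fell to 0.0494 without CDD 4 and was 0.0559 to 0.283 without each of the other brains (edgeR). With *Xist* as a covariate it was 0.0291 (edgeR), so that *Col18a1* was called in that fit.

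*Col4a1*, the collagen gene with the highest FPKM, had 300, 298, 319 and 290 CPM in CDD and 319, 309, 325 and 312 CPM in ND. CDD 3 lay among the ND brains, and the log2 fold change was -0.067 ± 0.046 (SE, adjusted p = 0.402, edgeR). *Col4a2* had 190, 200, 211 and 197 CPM in CDD and 206, 212, 221 and 203 CPM in ND, and its log2 fold change was -0.076 ± 0.045 (SE, adjusted p = 0.326, edgeR). The starts of both genes overlap head to head on chromosome 8 in the authors' coordinates, and the ratio of *Col4a1* to *Col4a2* FPKM was 1.34 ± 0.0388 in CDD and 1.33 ± 0.0397 in ND (SD, n = 4, exact two-sided permutation p = 0.8).

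The minor collagen IV chains are also encoded in head-to-head pairs, *Col4a4* with *Col4a3* at a gap of 72 bases and *Col4a6* with *Col4a5* at 1309 bases. None of them was called. The log2 fold changes of *Col4a4* and *Col4a3* were -0.13 and 0.60 (adjusted p = 0.72 and 0.36, edgeR), with 8 to 32 counts per brain behind *Col4a3*. Those of *Col4a6* and *Col4a5* were -0.14 and -0.027 (adjusted p = 0.327 and 0.835, edgeR).

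The summed FPKM showed how these genes add up in each class. For the other collagens it was 45.2, 43.8, 43.3 and 36.3 in CDD and 50.9, 48.0, 53.4 and 51.1 in ND, with means of 42.2 ± 3.97 and 50.8 ± 2.23 (SD, n = 4) and no overlap. For the fibrillar collagens it was 75.5 ± 2.05 in CDD and 80.7 ± 3.35 in ND, where ND 2 (76.4) lay among the CDD brains. For the basement membrane collagens it was 89.9 ± 2.53 and 93.0 ± 2.20, with CDD 3 (93.6) above 3 ND brains. All collagen genes summed to 208 ± 6.66 in CDD and 225 ± 6.51 in ND, and the highest CDD brain (211.8) was below the lowest ND brain (217.3).

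As a share of the summed collagen FPKM, the other class made up 20.3% ± 1.30 in CDD and 22.6% ± 0.505 in ND. The basement membrane class made up 43.3% ± 1.22 and 41.4% ± 0.92, and the fibrillar class 36.4% ± 0.938 and 35.9% ± 0.708 (SD, n = 4). The diets did not overlap for the other class and overlapped for the remaining classes. No test was made of these sums, since the classes were drawn up with results of these data known.

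**Figure D4:**
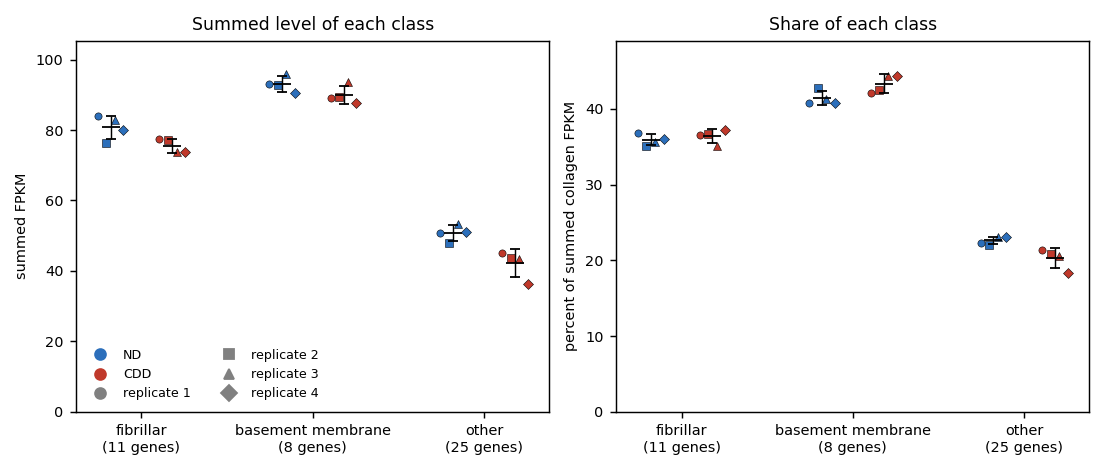
Summed FPKM (left) and share of the summed collagen FPKM (right) of the fibrillar, basement membrane and other classes in each ND (blue) and CDD (red) brain, with bars for mean and SD (n = 4) and axes from 0. The other class lies at 36.3 to 45.2 in CDD and at 48.0 to 53.4 in ND, while the diets overlap in the remaining classes.

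Ratios of 2 collagen genes within a brain do not depend on how libraries are scaled, and 8 ratios were compared. They were chosen with earlier results of these data known, which their p-values do not take into account. *Col6a1* to *Col6a2* was 1.63, 1.64, 1.58 and 1.70 in CDD and 1.98, 1.71, 1.85 and 1.75 in ND, a log2 difference of -0.15. *Col5a1* to *Col5a2* was 0.892, 0.796, 0.881 and 0.836 in CDD and 0.923, 1.01, 0.961 and 0.96 in ND, a log2 difference of -0.18. Neither ratio overlapped between the diets, and each had the smallest p that the exact two-sided permutation test can give with 4 against 4 brains, 0.0286, which was 0.114 after Benjamini-Hochberg adjustment over the 8 ratios. *Col3a1* to *Col1a1* was 1.28 ± 0.0789 in CDD and 1.2 ± 0.068 in ND (SD, n = 4, exact permutation p = 0.171, adjusted p = 0.457). The remaining ratios, *Col9a1* to *Col9a2*, *Col11a1* to *Col5a1* and *Col4a5* to *Col4a1*, gave an exact permutation p of 0.943, 0.83 and 0.486.

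**Figure D5:**
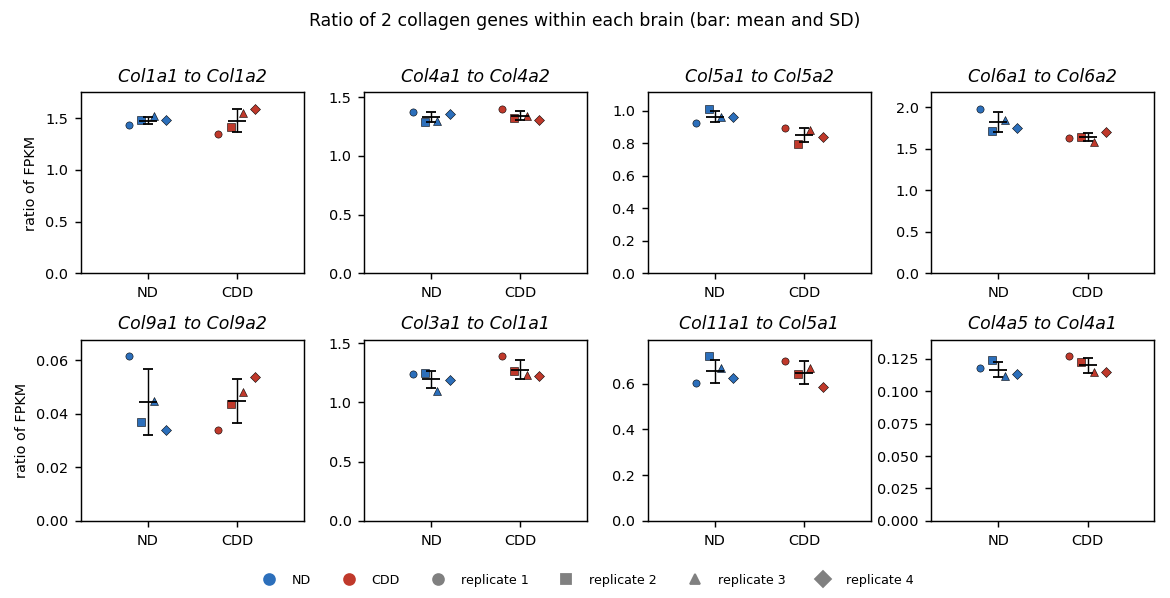
Ratio of the FPKM of 2 collagen genes within each brain for the 8 ratios compared, in ND (blue) and CDD (red), with bars for mean and SD (n = 4) and axes from 0. *Col5a1* to *Col5a2* and *Col6a1* to *Col6a2* are lower in every CDD brain than in any ND brain.

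The genes that make, process, bind and degrade collagen held calls in both directions. Of 89 genes on 6 lists, 84 were tested, 9 were lower and 4 were higher in CDD, or 15.5% of those tested beside 8.83% of all genes. The share was 40% for the list of fibril-binding genes and 7.69% to 11.8% for each of the other lists. Of the 19 genes for synthesis and folding, *Colgalt1*, which adds galactose to hydroxylysine, was lower (80.6 ± 1.75 CPM in CDD, 93.7 ± 2.65 CPM in ND, log2 fold change -0.22, adjusted p = 0.0039, edgeR). *P4hb*, a subunit of prolyl 4-hydroxylase and a disulfide isomerase, was higher (0.17, adjusted p = 0.0239), and the call was lost without CDD 2 or any 1 of the ND brains. These 2 calls were 10.5% of the list, near the 8.83% of all genes. The summed level of this list was 986 to 1005 CPM in CDD and 966 to 998 CPM in ND.

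Of 13 genes for extracellular processing and cross-linking, *Adamts2*, which cleaves the N-terminal propeptide, was lower (log2 fold change -0.37, adjusted p = 0.0378, edgeR), and the call was lost without CDD 1, CDD 4, ND 1, ND 3 or ND 4. Among 10 tested degradation genes and inhibitors, the metalloproteinase inhibitor *Timp2* was lower (139 ± 3.5 CPM in CDD, 161 ± 1.9 CPM in ND, -0.22, adjusted p = 0.0029, edgeR). None of the 5 lysyl oxidase genes and none of the 5 tested *Mmp* genes of these lists was called.

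Of 10 tested receptor genes, 8 had a log2 fold change above 0, as did 9507 of all 19367 tested genes. The 1 called receptor gene, *Adgrg1*, was 10% of those tested, near the 8.83% of all genes. It had 324, 333, 324 and 364 CPM in CDD and 272, 309, 273 and 288 CPM in ND, without overlap, and its log2 fold change was 0.24 ± 0.053 (SE, adjusted p = 0.0104, edgeR). The call was lost without ND 1 or ND 3.

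Fibril-binding proteoglycans and glycoproteins had the largest share of calls of these lists, 40% beside 8.83% of all tested genes. Of 15 tested genes, 5 were lower and 1 was higher, and the median log2 fold change was -0.15. Elastin (*Eln*) was lower (21.5 ± 0.755 CPM in CDD, 27.8 ± 2.04 CPM in ND, log2 fold change -0.37, adjusted p = 0.0024, edgeR). The matricellular protein gene *Postn* (-0.35, adjusted p = 0.009, edgeR), the fibril regulator *Fmod* (-0.53, adjusted p = 0.0114) and the microfibril gene *Fbn1* (-0.23, adjusted p = 0.0174) were lower as well. The 1 gene that was higher, *Lum*, was named after its values were seen (0.29, adjusted p = 0.0474, edgeR), and its call held in 1 of 8 fits that left out a brain. The call of *Fmod* was lost without ND 3 and that of *Fbn1* without ND 1, ND 3 or ND 4.

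Of 17 other basement membrane genes, the linker *Nid1* was lower (-0.16, adjusted p = 0.0378, edgeR) and perlecan, *Hspg2*, was higher (0.19, adjusted p = 0.0499). The call of *Nid1* was lost without CDD 1, CDD 3, ND 1, ND 3 or ND 4, and that of *Hspg2* without any of these or CDD 4. None of the 11 laminin genes of the list was called.

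Markers of cell types that are known to make collagen were read beside the 8.83% of all genes that were called. Of 12 meningeal fibroblast markers, 4 were lower and 2 were higher in CDD, and their summed level was 176 to 199 CPM in CDD and 188 to 214 CPM in ND. Of 9 mural cell markers, 3 were lower and 1 was higher (310 to 325 CPM and 319 to 341 CPM), and of 10 endothelial markers, 1 was lower (285 to 303 CPM and 302 to 322 CPM). Of 6 Schwann and neural crest markers, 5 were tested and none was called (18.5 to 25.5 CPM and 24.4 to 29.0 CPM). The summed levels of all 4 lists overlapped between the diets. *Lum* is on the meningeal list and on the list of fibril-binding genes. The part of these cell types in the collagen values was not tested.

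Markers of tissue from outside the brain had low summed levels, and how much of such tissue was present was not tested. Of 7 bone markers, 5 were tested and none was called (9.27 to 11.4 CPM summed in CDD, 8.33 to 10.1 CPM in ND). Of 6 skeletal muscle markers, 3 were tested and none was called (3.89 to 4.64 CPM and 4.27 to 4.53 CPM), with *Myod1*, *Myog* and *Ckm* not passing the filter. Of 6 epidermis markers, 2 were tested and none was called (8.08 to 10.2 CPM and 9.85 to 12.8 CPM), and *Krt5*, *Krt14*, *Krt15* and *Trp63* did not pass the filter.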

How the data were processed

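RNA of whole E14.5 brains (4 CDD, 4 ND) was compared. The counts that the authors deposited are unnormalized reads for each gene in each brain, and the FPKM that they deposited use a gene length listed in the same table. The submitters' processing notes name HISAT2 2.0.5, featureCounts 1.5.0-p3 and DESeq2 1.20.0. The genome build, annotation and use of strand are not given in the sources used here, so reads of overlapping genes on opposite strands may not be separated. The deposited normalized signal, the authors' fold changes and p-values, and 3 shorter gene lists were not used.

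After filterByExpr, 19367 of 33971 genes remained. Diet was tested in edgeR 4.0.16 (TMM scaling, robust quasi-likelihood fit, R 4.3.3) at an adjusted p of 0.05 over all tested genes, with the common coefficient of biological variation at 0.0814. The script was first tested on simulated data. It called 59.3%, 80.4% and 98.4% of genes with a simulated log2 change of 0.5, 1 and 1.5, and 0.0261% of unchanged genes. Changes below 0.5, which include most of those reported here, were not simulated. CPM are counts over TMM-scaled library sizes. Levels were compared between genes only as FPKM. Ratios within a brain were tested by exact permutation (two-sided) over 70 divisions. Errors are SD over brains, or SE of the fit where so named, and the library totals limit the precision of low genes.

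The members, classes, gene lists and tests were chosen with earlier results of these data known. Values in every brain are given for each called member and for the 2 members of each class with the highest FPKM, and called genes of the collagen pathway lists are named up to 4 a list by p, and called markers are given as counts. *Lum*, *Nes* and *Pax6* were named after their values were seen. Alternatives were DESeq2 1.42.0, limma-voom (limma 3.58.1), RLE and upper-quartile scaling, no filter, the replicate number as a block, a minimum of 10 counts in each brain, *Xist* as a covariate, a gene length offset (loess span 0.3), log2(FPKM + 1) with limma, an adjusted p of 0.01, wider classes, counts with 0.5 added for ratios, and each brain left out. Promoter windows are RefSeq sequences of GRCm38.p6. Tables were made with pandas 2.3.3 and NumPy 2.4.6 in Python 3.11.15, tests with SciPy 1.17.1 and plots with matplotlib 3.10.9.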

Additional observations from a re-analysis of the deposited data

Results flagged for a closer look

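Of 108 groups of 4 brains checked, 3 had a brain far from the other 3, and chance gives about 1 in 20 groups, or 5.4 here. *Col27a1* was at a log2 CPM of 3.71 in ND 4 and at 3.82 to 3.84 in the other ND brains. *Col5a2* was at 5.55 in ND 2 and at 5.69 to 5.72 in the others. *Col4a4* was at 0.58 in ND 2 and at 1.35 to 1.48 in the others. None of these genes was called.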

How the results depend on the processing

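Of 43 tested collagen genes, 12 passed (1 higher, 11 lower). Leaving out a brain gave 3 to 15 calls, with 0 to 1 higher and 3 to 14 lower, and *Col6a1*, *Col6a4* and *Col16a1* were called in every such fit. With limma on log2(FPKM + 1), 0 passed (0 higher, 0 lower, 19 at an unadjusted p under 0.05, and 390 genes in all). At an adjusted p of 0.01, 3 passed, 0 higher and 3 lower. *Xist* as a covariate gave 2 higher, *Col2a1* and *Col18a1*, and the gene length offset 0 higher, and neither called *Col1a2*. That offset moved the share of all calls that were lower from 51.9% to 42.0%. DESeq2 gave 15 calls, no filter 16 of 44, and limma-voom 10 without *Col1a2* and *Col5a3*. The replicate numbers did not pair the brains (correlations of deviations -0.133 to 0.232), and the replicate block gave 13 calls, 11 of them shared, and 1812 genes in all against 1710 (*Col12a1* and *Col7a1* gained, *Col5a3* lost). Of the collagen pathway genes 13 passed, with 8 in limma-voom, 3 on FPKM, 4 at 0.01 and 4 to 18 without 1 brain. The median log2 fold change of fibrillar genes was -0.10 on log2(FPKM + 1) and -0.20 to -0.12 without 1 brain. That of basement membrane genes was -0.14 when the class was widened by collagens VI, VII and VIII. For other genes it was -0.12 on log2(FPKM + 1), where the added 1 shrinks the values of low genes. Differences near 0 changed sign without 1 brain: the log2 ratio of *Col1a1* to *Col1a2* (-0.0376 to 0.0384), *Col4a1* to *Col4a2* (-0.011 to 0.023), *Col9a1* to *Col9a2* (-0.081 to 0.20) and *Col11a1* to *Col5a1* (-0.05 to 0.037), and the log2 fold change of *Col4a5* (-0.049 to 0.0101), *Col17a1* (-0.60 to 0.013), *Col8a1* (-0.071 to 0.12, with 0.000235 in DESeq2 and 0.00177 on FPKM) and *Col8a2* (-0.088 to 0.22). The cause of these changes was not tested.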
